A study of Mus musculus with 6 samples.

Results

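The 8 genes described here encode the constant part of the immunoglobulin light chains (*Igkc*, *Iglc1*, *Iglc2* and *Iglc3*) and the surrogate light chain and its relatives (*Igll1*, *Vpreb1*, *Vpreb2* and *Vpreb3*). They were taken by gene symbol, through GENCODE vM21, from the 46983 genes listed in the deposited expression table, and all 8 were found. Their values came from bulk RNA-seq of splenic B cells from 3 WT and 3 *Hif1a* KO cultures, a design that asks which transcripts differ in B cells without HIF-1α during IgA class switching. *Hif1a* KO mice carried *Hif1a* f/f together with *Mb1*-cre, a cre placed in *Cd79a*, which B-lineage cells switch on early. WT mice were littermates with either *Hif1a* f/+ and cre or *Hif1a* f/f without cre, and since no label gives this per library, the WT group may mix libraries with and without cre. All mice were on a C57BL/6 background, and their age was not given in the sources used here. All 6 cultures were kept for 3 days with LPS at 5 μg/ml and with TGF-β, IL-5 and BAFF, each at 10 ng/ml. The study's methods describe such cultures as started from sorted follicular B cells of the spleen.

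An antibody pairs heavy chains with light chains, and a B cell uses either kappa chains, which end in the *Igkc* part, or lambda chains, which end in the part of an *Iglc* gene. Most mouse B cells use kappa. Before a light chain gene has been rearranged, the precursor B cell pairs its first heavy chain with a surrogate light chain, built from the products of *Igll1* and of *Vpreb1* or *Vpreb2*, and these genes are silenced as the cell matures. *Vpreb3* encodes a related protein of the endoplasmic reticulum that mature B cells can still express.

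*Igkc* (ENSMUSG00000076609) lies on the plus strand of chromosome 6 from 70726435 to 70726966 in mm10, as 1 annotated transcript. The lambda constant genes lie on the minus strand of chromosome 16, *Iglc1* (ENSMUSG00000105906) from 19061618 to 19062071, *Iglc3* (ENSMUSG00000105547) from 19065230 to 19065681 and *Iglc2* (ENSMUSG00000076937) from 19198396 to 19200351. Because the 3 lambda constant genes are copies of each other, the first 120 coding bases of each constant part are shown, from GENCODE vM21 transcripts. Capitals mark the 30 positions at which the 3 genes do not all have the same base. The stretches are chr16:19061952-19062071 for *Iglc1*, chr16:19198733-19198852 for *Iglc2* and chr16:19065562-19065681 for *Iglc3*, all read on the minus strand of mm10.
Iglc1: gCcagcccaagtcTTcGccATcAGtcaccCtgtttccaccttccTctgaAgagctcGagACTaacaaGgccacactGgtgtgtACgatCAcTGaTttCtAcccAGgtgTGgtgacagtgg
Iglc2: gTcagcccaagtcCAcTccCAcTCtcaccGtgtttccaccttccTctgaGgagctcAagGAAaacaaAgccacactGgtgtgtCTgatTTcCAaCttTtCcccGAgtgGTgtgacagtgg
Iglc3: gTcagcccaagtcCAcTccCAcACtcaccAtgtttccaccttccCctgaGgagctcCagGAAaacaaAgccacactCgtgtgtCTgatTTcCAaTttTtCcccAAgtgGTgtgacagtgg
Within these bases, *Iglc2* and *Iglc3* differed at 7 positions, while *Iglc1* differed from *Iglc2* at 28 and from *Iglc3* at 27. Over the whole coding part, *Iglc2* and *Iglc3* were identical at 303 of 314 aligned bases (96.5%), and *Iglc1* was 74.8% identical to *Iglc2* and 75.4% to *Iglc3*. Of the 409 windows of 50 bases in *Iglc2*, 43 (10.5%) also occurred in *Iglc3*, and none of the 405 windows of *Iglc1* occurred in another gene. At 100 bases no window of the 3 lambda constant genes was shared. Reads within such windows cannot be assigned to 1 gene, so the split between *Iglc2* and *Iglc3* is less certain than the level of *Iglc1* or *Igkc*.

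The values are FPKM, read counts divided by gene length and library depth, so that levels can be set side by side between genes. Read numbers recovered from the FPKM values gave 25.03 to 37.22 M reads per library. Over the 13312 genes whose mean FPKM reached 0.5, limma with Benjamini-Hochberg adjustment called 0 genes (0%) at an adjusted p under 0.05 and 929 (6.98%) at an unadjusted p under 0.05 (2.48% higher and 4.50% lower in KO cells), and limma-voom on the recovered reads also called 0. WT replicate 1 stood apart from the other WT libraries. The leading principal component (54.7% of the variance) set WT replicates 2 and 3 (26.2 and 25.9) against the other libraries, which lay from −19.5 to −7.10, WT replicate 1 at −15.7 among them. Without WT replicate 1, 1251 genes were called (9.40%, of which 3.64% higher and 5.75% lower), and the fits of the members are therefore given with and without that library. That library was picked from these same values, and the libraries that remain split by genotype along this component. Calls in the fit without it thus describe that split and are not a separate test of genotype. *Hif1a* itself had 36.5, 49.8 and 45.8 FPKM in the WT libraries and 46.5, 45.6 and 52.8 FPKM in the KO libraries (replicates 1, 2 and 3), a gene total that includes exons outside the floxed part and so does not check the genotype. The Y-linked *Ddx3y* reached 43.3 FPKM in *Hif1a* KO replicate 2 and at most 0.0095 in the others. By this gene, *Hif1a* KO replicate 2 held male cells, unlike the other KO libraries, so the KO group mixed sexes, and sex was not a term in the fit. It thus did not come from the same mouse as the other KO libraries. Nothing in the labels says whether the remaining libraries of a group came from separate mice, so the p-values measure the spread between these samples. All 10 B-cell markers had a mean FPKM of at least 5. In bulk RNA, fewer cells of a type and less RNA per cell cannot be told apart.

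*Igkc* was the most abundant of the 8 genes and did not differ between the genotypes beyond the spread of the libraries. WT replicates 1, 2 and 3 had 7148, 4766 and 4196 FPKM, and the KO replicates had, in the same order of numbers, 5784, 5702 and 7024 FPKM. The WT group thus held both the highest and the lowest library, and the KO values lay between them. These levels rest on 57983 to 141556 recovered reads, so that counting error was small beside the difference between libraries. The means were 5370 ± 1566 in WT and 6170 ± 741 in KO cells (SD, n = 3 each). On the log2(FPKM + 1) scale used for all fold changes here, the difference was 0.23 (SE 0.21, 95% interval −0.26 to 0.72, limma adjusted p = 0.701). Leaving out WT replicate 1 gave 0.46 (adjusted p = 0.0739), still short of the threshold, leaving out WT replicate 3 gave 0.073 and leaving out *Hif1a* KO replicate 3 gave 0.14.

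The lambda constant genes followed at a lower level. *Iglc1* had 596, 430 and 430 FPKM in WT cells and 573, 466 and 687 FPKM in KO cells (replicates 1, 2 and 3 in order here), means of 485 ± 95.7 and 575 ± 111 (SD). *Iglc2* had 473, 423 and 420 in WT and 447, 427 and 486 in KO cells, means of 439 ± 29.98 and 453 ± 30.08. *Iglc3* had 150, 95.8 and 115 in WT and 155, 119 and 150 in KO cells, means of 120 ± 27.2 and 141 ± 19.4. In each gene the genotypes overlapped, with WT replicates 2 and 3 as the 2 lowest libraries, and WT replicate 1 close to the upper KO libraries. The log2 fold change was 0.24 (SE 0.18, limma adjusted p = 0.667) for *Iglc1*, 0.047 (SE 0.080, adjusted p = 0.835) for *Iglc2* and 0.24 (SE 0.17, adjusted p = 0.661) for *Iglc3*. The interval was narrowest for *Iglc2*, from −0.14 to 0.24, and ran from −0.18 to 0.67 for *Iglc1* and from −0.17 to 0.66 for *Iglc3*. When WT replicate 1 was left out, the changes were 0.40, 0.10 and 0.41 (adjusted p = 0.153, 0.385 and 0.111). With each of the 6 libraries left out in turn, *Iglc1* ran from 0.11 without *Hif1a* KO replicate 3 to 0.40, and *Iglc3* from 0.094 without WT replicate 2 to 0.41. Thus 0 of the 5 members that could be tested were called, beside 0% of all genes, and 0 of 5 had an unadjusted p under 0.05, beside 6.98%. None of the 5 had KO values all above or all below WT values, a pattern that 10.1% of the genes tested showed (4.06% above and 6.03% below).

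**Figure D1:**
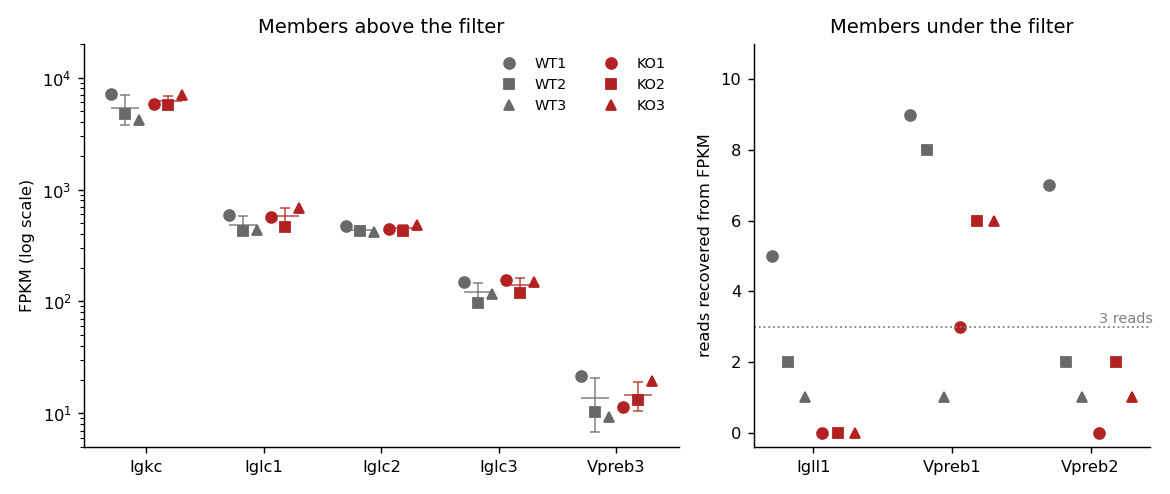
Left, FPKM (log axis) of the 5 members above the filter in each library, with group means and SD as horizontal bars with whiskers. Right, reads recovered for the 3 members under the filter, with a dotted line at 3 reads. *Igkc* lies about a decade above the lambda constant genes, the genotypes overlap in all 5 tested genes, and no library holds more than 9 reads of a member on the right.

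In order of mean FPKM, *Igkc* (5770) stood above *Iglc1* (530), *Iglc2* (446), *Iglc3* (131) and *Vpreb3* (14.2), and the ranges of neighbours were separate except for *Iglc1* and *Iglc2*. The lowest *Igkc* value, 4196, was above the highest *Iglc1* value, 687, and the lowest *Iglc2* value, 420, was above the highest *Iglc3* value, 155. *Iglc1* was above *Iglc2* in all 6 libraries, with a ratio of 1.02 to 1.41, but this order depended on the gene length. The authors' FPKM of *Iglc2* follows a length of 532 bases, the mean of transcripts of 458 and 606 bases, of which the shorter holds only the constant exon. With the shorter length, the ratio of *Iglc1* to *Iglc2* ran from 0.876 to 1.22 and was under 1 in 3 libraries, WT replicates 2 and 3 and *Hif1a* KO replicate 2. The ratio of *Iglc2* to *Iglc3* was 2.89 to 4.41. *Iglj2*, whose 38 bases lie within an exon of *Iglc2* on the same strand, was listed at 0 in every library. Of the exon bases of *Iglc3*, 93 of 452 are also covered on the opposite strand by 2010309G21Rik, which had 0.757 to 2.79 FPKM.

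The lambda share compares the 2 kinds of light chain within a library and so is free of the scaling between libraries. *Iglc1*, *Iglc2* and *Iglc3* together made up 14.6%, 16.6% and 18.7% of the light chain constant FPKM in the WT libraries and 16.9%, 15.1% and 15.9% in the KO libraries. The KO values lay within the range of the WT values. The means were 16.6 ± 2.07% and 15.9 ± 0.903% (SD, n = 3 each), a difference of −0.69 percentage points (exact permutation test, two-sided, p = 0.7, where 3 against 3 libraries cannot give a p below 0.1), and of −1.72 without WT replicate 1. From the variable genes, the share of lambda was 13.1% to 15.2% in WT and 13.6% to 14.6% in KO cells, below that from the constant genes in all 6 libraries. Within lambda, *Iglc1* held 48.9%, 45.3% and 44.6% of the constant FPKM in WT and 48.8%, 46.0% and 51.9% in KO cells. The highest value was in *Hif1a* KO replicate 3, and the groups overlapped (difference 2.64 percentage points, exact permutation p = 0.3, and 1.14 to 4.08 points with 1 library left out, the lowest without *Hif1a* KO replicate 3 and the highest without *Hif1a* KO replicate 2).

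**Figure D2:**
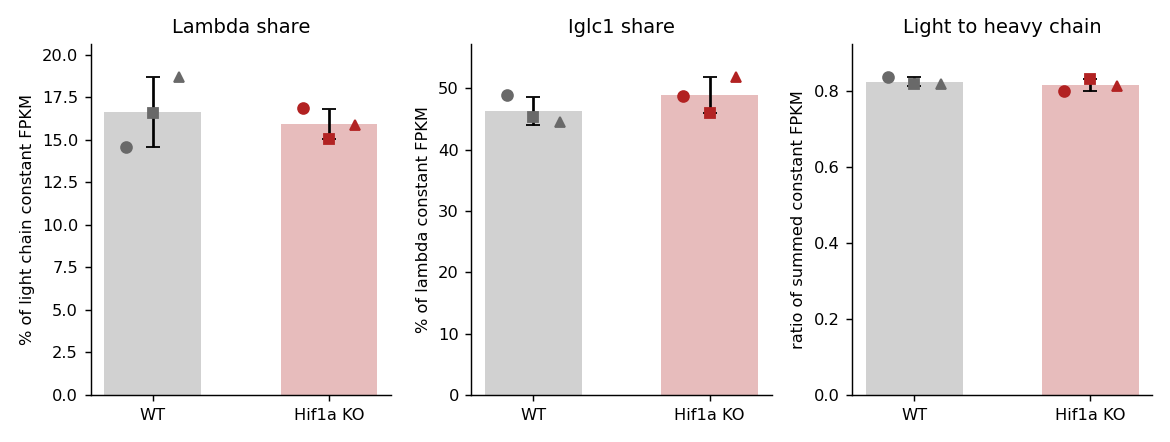
Shares and ratio within each library, points for libraries, bars for group means and whiskers for SD (n = 3), all axes starting at 0. The lambda share is 14.6% to 18.7%, the *Iglc1* share 44.6% to 51.9% and the ratio of light to heavy chain 0.800 to 0.838, with overlapping groups in each panel.

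Light chain and heavy chain transcripts kept a nearly fixed proportion. The summed FPKM of the 4 light chain constant genes divided by that of 8 heavy chain constant genes was 0.838, 0.818 and 0.819 in WT cells and 0.800, 0.832 and 0.813 in KO cells. The ratio varied by 1.64% (CV over 6 libraries), although *Igkc* alone varied by 20.5% and by 1.70-fold between the highest and lowest library. The genotypes differed by −0.0098 (exact permutation p = 0.4), with −0.018 to −0.0025 when 1 library was left out, the latter without *Hif1a* KO replicate 1 and −0.0034 without WT replicate 1. *Ighm*, the mu chain that unswitched B cells carry, made up most of the heavy chain FPKM, with 5741 to 9310, and the ratio of *Igkc* to *Ighm* was 0.731 to 0.788. *Igha*, the constant gene of IgA, had 62.2, 34.6 and 32.3 FPKM in WT and 66.9, 58.0 and 74.5 in KO cells. Its log2 fold change of 0.67 did not pass (limma adjusted p = 0.626), but without WT replicate 1 it was 0.96 (adjusted p = 0.0083). Of the 7 heavy chain genes tested, 5 had a positive and 2 a negative log2 fold change, with a median of 0.30, and none was called. Over all genes the median was −0.028. Without WT replicate 1, *Igha*, *Ighd*, *Ighg2b* and *Ighg3* were called higher, 4 of 7 beside 3.64% of all genes called higher, and *Ighm* at 0.41 was not (adjusted p = 0.102). None of the light chain members was called in that fit either.

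**Figure D3:**
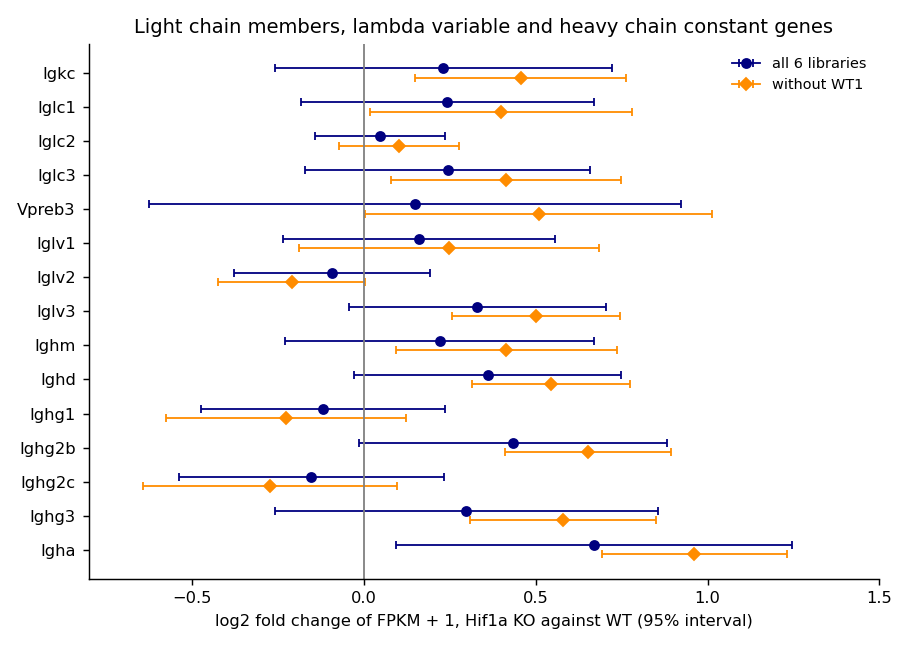
Log2 fold change of FPKM + 1 (*Hif1a* KO against WT) with 95% intervals for the 5 tested members, the lambda variable genes and 7 heavy chain constant genes, in circles for all 6 libraries and in diamonds without WT replicate 1. *Igkc* moves from 0.23 to 0.46 and *Igha* from 0.67 to 0.96 when WT replicate 1 is left out, while *Iglc2* stays near 0 (0.047 and 0.10).

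The members did not vary by the same amount. Over the 6 libraries the CV was 20.5% for *Igkc*, 19.7% for *Iglc1*, 18.4% for *Iglc3* and 36.1% for *Vpreb3*, but 6.29% for *Iglc2*. *Iglc2* therefore moved by only 1.16-fold between libraries, where the other lambda constant genes moved by 1.60-fold (*Iglc1*) and 1.61-fold (*Iglc3*). It still followed their pattern over the libraries, by a smaller amount. Its Pearson's r of log2(FPKM + 1) was 0.969 with *Iglc1*, 0.809 with *Iglc3* and 0.91 with *Igkc*. The kappa joining segments, short pieces between the variable genes and *Igkc*, stayed more level still. Their summed FPKM was 1870, 1794 and 1904 in WT and 1910, 1869 and 1834 in KO cells, a CV of 2.35%. The summed kappa variable genes ran from 6817 to 10331 FPKM, with a CV of 16.7%. *Igkc* over the summed joining segments thus ranged from 2.204 in WT replicate 3 to 3.83 in *Hif1a* KO replicate 3. The joining segments are very short, and how the authors' FPKM treats such lengths and reads that span genes was not tested.

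**Figure D4:**
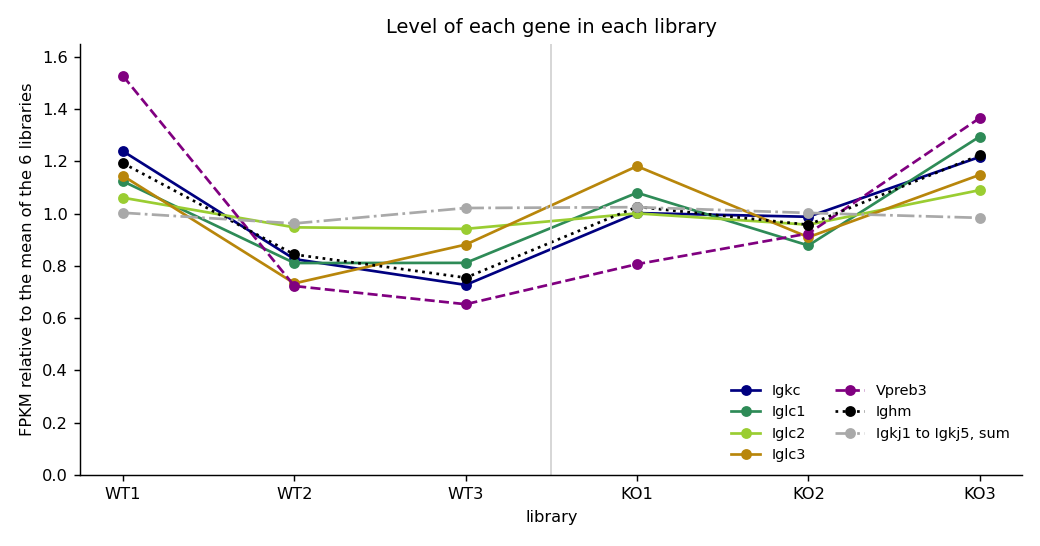
FPKM of each gene relative to its mean over the 6 libraries, by library. *Igkc*, *Iglc1*, *Iglc3*, *Vpreb3* and *Ighm* are low in WT replicates 2 and 3 and high in *Hif1a* KO replicate 3, while *Iglc2* and the summed *Igkj1* to *Igkj5* stay close to 1.

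The lambda variable genes pair with certain constant genes, *Iglv2* mainly with *Iglc2*, and *Iglv1* with *Iglc1* or *Iglc3*. *Iglv1* had 882, 746 and 727 FPKM in WT and 928, 683 and 1058 in KO cells. *Iglv2* had 294, 387 and 366 FPKM in WT and 298, 323 and 358 in KO cells, and *Iglv3* had 187, 137 and 126 in WT and 188, 166 and 205 in KO cells. *Iglv2* was lowest where most other light chain genes were high, in WT replicate 1. It held 21.6%, 30.5% and 30.1% of the lambda variable FPKM in WT and 21.1%, 27.6% and 22.1% in KO cells (difference −3.79 percentage points, exact permutation p = 0.3, a share chosen after the values were seen). Leaving out 1 library moved this difference to between −6.68 (WT replicate 1 left out) and −2.24 (WT replicate 2 left out). All 3 genes were tested and none was called, with log2 fold changes of 0.16, −0.091 and 0.33 for *Iglv1*, *Iglv2* and *Iglv3*. *Iglv3* was called higher without WT replicate 1, 1 of 3 beside 3.64% of all genes called higher. Of the 5 lambda joining or pseudogene segments tested, none was called. *Iglj3* was called higher without WT replicate 1, 1 of 5 beside the same 3.64%.

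*Vpreb3* was the only surrogate light chain gene at a level that could be tested. It (ENSMUSG00000000903) lies on the plus strand of chromosome 10 from 75943057 to 75949657. Its start in the RefSeq promoter table lies inside these bounds, not at their first base. The 97 bases before that RefSeq start (GRCm38.p6, chr10:75948203-75948299, plus strand) are shown. They hold, in capitals, the octamer ATTTGCAT known from immunoglobulin promoters, which begins 45 bases before the RefSeq start.
Vpreb3: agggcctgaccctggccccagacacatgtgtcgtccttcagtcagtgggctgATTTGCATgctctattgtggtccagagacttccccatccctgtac
Searched on both strands, the octamer was in 570 of 32851 promoters of 300 bases (1.74%), and not in those of *Igll1*, *Vpreb1* or *Vpreb2*. The 4 constant genes had no entry in the table. *Vpreb3* had 21.7, 10.3 and 9.27 FPKM in WT cells, from 546, 215 and 163 recovered reads, and 11.4, 13.1 and 19.4 FPKM in KO cells, from 194, 305 and 392 reads. WT replicate 1 was the highest and WT replicate 3 the lowest of the 6 libraries, 2.34-fold apart. The means were 13.7 ± 6.89 and 14.6 ± 4.19 (SD, n = 3 each), and the log2 fold change was 0.15 (SE 0.33, 95% interval −0.62 to 0.92, limma adjusted p = 0.875). Without WT replicate 1 it was 0.51 (adjusted p = 0.165), and it was −0.062 without WT replicate 3.

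The components of the pre-B-cell receptor proper were close to the limit of detection. *Igll1* (ENSMUSG00000075370, chromosome 16, 16860671 to 16863985, minus strand) had 5, 2 and 1 recovered reads in WT cells and 0 in each *Hif1a* KO library, where a count of 0 allows up to 3 reads per library. *Vpreb1* (ENSMUSG00000059305, chromosome 16, 16868403 to 16870843, minus strand) had 9, 8 and 1 reads in WT and 3, 6 and 6 in KO cells. *Vpreb2* (ENSMUSG00000059280, chromosome 16, 17980428 to 17981273, plus strand) had 7, 2 and 1 in WT and 0, 2 and 1 in KO cells. Their mean FPKM over the 6 libraries was 0.032, 0.214 and 0.149, under the filter of 0.5, and a difference between genotypes was not detectable at this depth. No annotated length fitted these 3 genes, so the smallest lengths that gave whole reads were used (1244, 806 and 429 bases). Their read numbers are thus the smallest that fit and may be too low. In *Igll1* every KO value, at 0 reads, lay under every WT value, at 5, 2 and 1 reads, which is at the limit of detection. Among the genes tested, which do not include *Igll1*, 6.03% showed this pattern. *Vpreb1* and *Vpreb2* are 97.9% identical over 426 coding bases, with 9 bases that differ, and 14.5% of the windows of 100 bases in *Vpreb1* (97 of 667) also occur in *Vpreb2*, so their reads cannot be fully told apart. *Vpreb1* also shares 108 of its 1199 exon bases with *Top3b* on the opposite strand, a gene with 39.4 to 45.6 FPKM.

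The surrogate reads were most numerous in WT replicate 1, the library that also had the most *Rag1* and neutrophil marker reads. *Igll1*, *Vpreb1* and *Vpreb2* together had 21, 12 and 3 reads in WT and 3, 8 and 7 in KO cells. *Rag1*, which cuts DNA during V(D)J recombination, had 244 reads in WT replicate 1, 1 in each of WT replicates 2 and 3, and 5, 2 and 11 in KO cells. *Dntt*, which adds bases at V(D)J joints, had 8 reads in WT replicate 1 and at most 1 elsewhere. WT replicate 1 was thus the highest library in each of these read numbers, and it was also the deepest of the 6. By FPKM, *Igll1* and *Vpreb2* were highest in WT replicate 1, whereas *Vpreb1* was 0.300 there and 0.321 in WT replicate 2. The 8 neutrophil markers together had 665, 18 and 4 reads in WT and 0, 7 and 2 in KO cells, with *S100a9* at 383 reads in WT replicate 1 and 0 in all other libraries. The part of such cells in the surrogate reads was not tested. Where no annotated length fitted a gene, as for *Igll1*, *Vpreb1* and *Vpreb2*, its read number is the smallest that fits, so read numbers and sums here may be too low. The 10 genes of the recombination and progenitor list summed to 7874, 4683 and 4361 reads in WT and 5506, 5558 and 6479 in KO cells, and to 37.3, 30.3 and 33.0 FPKM in WT and 38.3, 28.6 and 37.4 in KO cells. WT replicate 1 was the highest in reads but not in FPKM, and *Cd93* alone held 15.7 to 27.2 FPKM of these sums. By FPKM, *Rag1*, *Rag2*, *Dntt* and *Erg* of this list were highest in WT replicate 1, and its other genes were not. *Kit* had 2.46, 6.13 and 6.07 FPKM in WT and 2.65, 2.05 and 3.11 in KO cells. *Il7r* was highest in WT replicate 2 and *Flt3* in WT replicate 3. Of the 5 genes of this list that could be tested, 2 had a positive and 3 a negative log2 fold change, with a median of −0.18, and none was called. The KO values of *Il7r* were all below the WT values, a pattern that 6.03% of the genes tested showed. *Kit* was called lower without WT replicate 1 (−0.99, limma adjusted p = 0.0153), 1 of 5 beside 5.75% of all genes called lower.

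**Figure D5:**
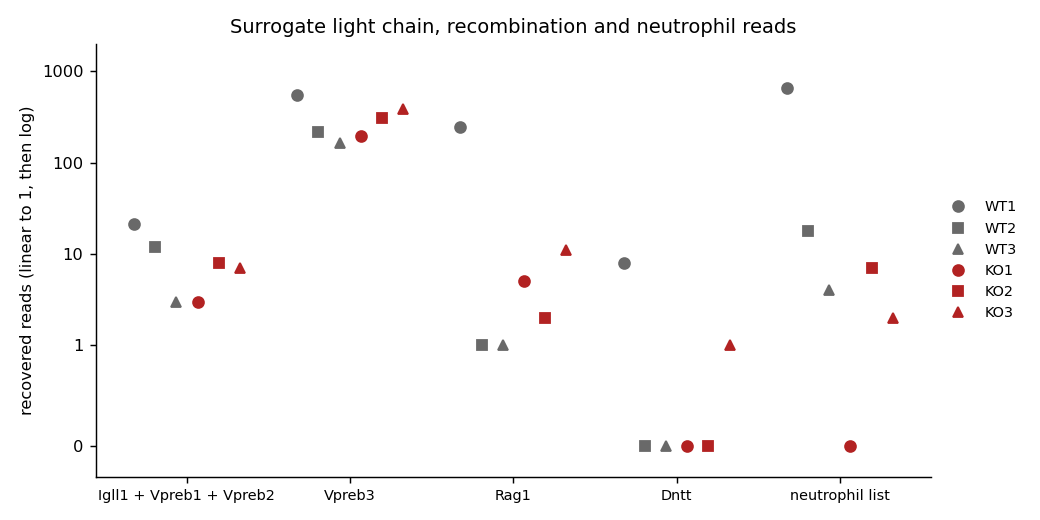
Reads recovered from the FPKM values (linear to 1, then a log axis) for the summed surrogate genes *Igll1*, *Vpreb1* and *Vpreb2*, for *Vpreb3*, *Rag1* and *Dntt*, and for the 8 neutrophil markers, by library. WT replicate 1 is the highest library in every column, with 21 surrogate reads, 244 *Rag1* reads and 665 neutrophil reads.

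The summed macrophage markers were highest in the 2 WT libraries with the least *Igkc*. The 12 markers summed to 74.4, 171 and 120 FPKM in WT cells and to 74.8, 79.5 and 67.7 in KO cells, and *Adgre1* alone held 55.5 to 91.1 FPKM of these sums. *Lyz2*, the macrophage lysozyme, had 6.18, 58.3 and 26.2 FPKM in WT and 0.5996, 2.23 and 3.70 in KO cells, and *Csf1r* was at most 0.754 FPKM. *Mrc1* and *Itgam* were instead lowest in WT replicate 3, at 0.714 and 0.068 FPKM. *C1qc* was at 0 in *Hif1a* KO replicate 1 and at most 1.47 FPKM elsewhere. Of the 5 that could be tested, 4 had a negative log2 fold change, with a median of −0.48. None was called in all 6 libraries. Without WT replicate 1, *Lyz2* and *C1qa* were called lower, 2 of 5 beside 5.75% of all genes called lower. Of the 8 T-cell markers, 1 could be tested, *Lck*, a kinase, and the T-cell receptor gene *Trac* was at most 0.685 FPKM. *Cd3e*, *Cd3d* and *Cd3g* had means of 0.059, 0.20 and 0.44 FPKM, far below the level of *Lck*. The KO values of *Lck* (133 to 137 FPKM) were all above the WT values (90.1 to 131), a pattern that 4.06% of the genes tested showed. It was not called (limma adjusted p = 0.626). Without WT replicate 1 it was called higher (adjusted p = 0.0067), beside 3.64% of all genes called higher. The part of these cells in the light chain levels was not tested.

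The receptor through which light chains signal was present in all libraries. *Cd79a*, a signal chain of the B-cell receptor and the gene that carries the cre in *Mb1*-cre mice, had 1203, 739 and 779 FPKM in WT and 498, 1074 and 611 in KO cells. *Cd79b*, its partner, had 692, 432 and 410 in WT and 589, 671 and 734 in KO cells. Thus *Cd79a* was lowest in 2 KO libraries, whereas *Cd79b* was lowest in WT replicates 2 and 3, as *Igkc* was. The log2 fold changes were −0.36 and 0.41 (limma adjusted p = 0.695 and 0.626). Of the 8 receptor signalling genes tested, 6 had a positive and 2 a negative log2 fold change, with a median of 0.068, and none was called. *Cd79b* and the kinases *Lyn* and *Syk* were called higher without WT replicate 1, 3 of 8 beside 3.64% of all genes.

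Transcription factors that act at light chain or surrogate light chain genes were all expressed, with a mean FPKM of at least 5 in 17 of 17. Of these, 13 had a positive and 4 a negative log2 fold change, with a median of 0.099, and none was called. *Pou2af1*, the coactivator that binds with octamer factors, had 471, 288 and 282 FPKM in WT and 449, 396 and 508 in KO cells (log2 fold change 0.41, limma adjusted p = 0.626), and it was called higher without WT replicate 1 (0.65, adjusted p = 0.0216). *Irf4*, which acts at the light chain enhancers, had 126, 104 and 101 in WT and 130, 96.9 and 152 in KO cells. *Pax5*, the factor that keeps B-cell identity, had 495, 491 and 505 in WT and 516, 607 and 428 in KO cells. The order of the libraries in *Pou2af1* was close to that in *Igkc*, and that in *Pax5* was not. In the fit without WT replicate 1, 6 of the 17 were called, all higher, *Ebf1*, *Foxo1*, *Ikzf3*, *Irf8*, *Pou2af1* and *Spi1*, beside 3.64% of all genes called higher.

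None of the genes of antibody assembly and secretion was called, and the regulators *Xbp1* and *Prdm1* and the gene *Jchain* are given as examples. *Xbp1*, which drives the secretory program, had 363, 213 and 193 FPKM in WT and 334, 233 and 474 in KO cells. *Jchain*, which joins IgA and IgM into multimers, had 182, 90.5 and 84.0 in WT and 173, 142 and 220 in KO cells. *Prdm1*, the plasma cell regulator, had 40.0, 17.1 and 16.7 in WT and 41.3, 29.2 and 55.9 in KO cells. In these 3 WT replicates 2 and 3 were lowest and *Hif1a* KO replicate 3 was highest, but not in the whole list. *Edem1*, which helps to clear misfolded proteins, was highest in WT replicate 2 (126 FPKM), and the chaperone *Hspa5* was lowest in *Hif1a* KO replicate 2 (544 FPKM). Of the 19 genes tested of 20, 17 had a positive and 2 a negative log2 fold change, with a median of 0.21 beside −0.028 over all genes. Without WT replicate 1, 4 of 19 were called higher, *Eaf2*, *Jchain*, *Prdm1* and *Txndc5*, beside 3.64% of all genes.

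The genes most like *Igkc* over the 6 libraries were *Ptp4a3*, *Socs2*, 2510039O18Rik, *Ssbp4* and *Nkiras2*, with a Pearson's r of log2(FPKM + 1) of 0.993 to 0.995. They were taken from 9061 genes outside the immunoglobulin loci that averaged 5 FPKM or more, of which 582 (6.42%) had an r over 0.9. The genes most like the summed lambda constant genes were *Bhlha15*, *Adssl1*, *Nans*, *Trak2* and *Pqlc3*, with an r of 0.994 to 0.997, and 465 genes (5.13%) had an r over 0.9. *Bhlha15*, a factor of secretory cells, had 6.73, 3.11 and 3.25 FPKM in WT and 5.97, 4.05 and 9.10 in KO cells. *Socs2*, an inhibitor of cytokine signalling, had 28.8, 19.8 and 17.6 FPKM in WT and 24.5, 24.7 and 29.6 in KO cells. The points are 6 libraries that share the split along the first principal component, and the 5 genes named for each were picked from 9061, so the r values are a description.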

How the data were processed

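RNA of 6 cultures, 3 WT and 3 *Hif1a* KO by the sample labels, had been sequenced. The authors aligned the reads to mm10 with TopHat, counted them per gene with HTSeq, computed FPKM and deposited the FPKM values, 1 column per library. All columns were used (0 left out). The annotation release, the strand option and the handling of reads with several alignments were not given in the sources used here, so near-identical copies and overlapping genes are uncertain. GENCODE vM21 (GRCm38) gave symbols and coordinates and held 46488 of 46983 gene IDs. Low FPKM values were whole multiples of 1 read for 95.1% to 95.6% of those tested, within 0.02 reads, which gave depths and read numbers. They cover counting error only. For 6132 of the 25717 genes above 0, no annotated length gave whole reads, and the smallest length that did was used. The read numbers of those genes are the smallest that fit and may be too low.

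Differences were tested with limma 3.58.1 in R 4.3.3 (lmFit, eBayes with trend) on log2(FPKM + 1), a pseudocount of 1, for the 13312 genes whose mean FPKM reached 0.5, with Benjamini-Hochberg adjustment and a threshold of 0.05. A fold change on this scale understates that of low genes. Shares and ratios were tested by exact permutation of libraries, two-sided (scipy 1.17.1). The scripts were tested on simulated data. The named genes are the 8 members, the genes of the fixed pathway and marker lists, and the 5 genes most like *Igkc* and most like the lambda sum. *Hif1a*, *Ddx3y* and genes overlapping a member were added as checks. The members and lists were chosen with earlier results of these data known. Promoters came from RefSeq (GRCm38.p6), with entries for 4 of 8 members.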

Additional observations from a re-analysis of the deposited data

How the results depend on the processing

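Under 75 combinations of the tested members with an alternative setting (pseudocount 0.1, no filter, a mean FPKM of at least 5, 3 other scalings, robust eBayes, voom on recovered reads, the replicate block, each library left out), 72 kept the direction, 3 reversed and 0 were called. The reversed values were −0.0040 for *Iglc2* without *Hif1a* KO replicate 3, and −0.062 and −0.057 for *Vpreb3* when WT or *Hif1a* KO replicate 3 was left out, respectively. The highest values with 1 library left out were 0.10 for *Iglc2* and 0.51 for *Vpreb3*, both without WT replicate 1. The count of genes called in all 13312 ran from 0 to 1251 when 1 library was left out (1251 without WT replicate 1, and 1 when *Hif1a* KO replicate 1 was left out), and was 0 under every other setting run. The lambda share differed by 0.065 percentage points with *Iglc1* alone for lambda and by −1.72 to 0.350 with 1 library left out (0.350 without WT replicate 3), against −0.69. No pairing by replicate number was seen, as deviations of same-numbered libraries from their group means correlated at −0.099, 0.139 and −0.276. With 3 libraries per group and WT replicate 1 apart from the other WT libraries, these values cannot decide whether the numbers pair the samples. With the replicate block 0 genes were called, and the adjusted p was 0.810 for *Igkc*, 0.784 for *Iglc1*, 0.903 for *Iglc2*, 0.780 for *Iglc3* and 0.920 for *Vpreb3*. The paired exact p for the lambda share was 0.75, the smallest possible being 0.25. The causes of these shifts were not tested. Depth limits *Igll1*, *Vpreb1* and *Vpreb2*, which had at most 9 recovered reads per library, as the smallest numbers that fit their FPKM values.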
